A study of Mus musculus with 9 samples.

Results

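The microRNAs miR-29a, miR-29b and miR-29c share one seed, the stretch near the 5′ end that pairs with target RNAs, and act as guides bound to Argonaute (AGO). The family is best known as a brake on extracellular matrix genes: collagens, elastin and other matrix genes carry many miR-29 matches, and in liver the family acts in stellate cells, the collagen-producing cells of the organ, as well as in hepatocytes. De novo DNA methyltransferases and TET enzymes are other well-described targets. AGO CLIP-seq recovers RNA that ultraviolet light has crosslinked to AGO, so a read marks where AGO sat, and a seed match under the read names the microRNAs that could have brought it there.

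The regions described here are the AGO-bound regions of mouse liver that carry a match to the miR-29 seed in the deposited annotation and no match to miR-122-5p. They number 5085 of 92645 regions. Before regions with a miR-122 match were left out there were 5309. A miR-122 match here means one to the annotated miR-122-5p entries. Matches to miR-122-3p, the other strand, did not count, and 42 of the miR-29 regions carried one. The series set 4 livers of miR-122 knockout (KO) mice, 1 female and 3 male, against 5 livers of floxed littermate controls, 3 female and 2 male, all 6 weeks old, with 1 mouse per library. The Cre driver, and so the cell types that lost the microRNA, was not stated in the labels used here, and the controls carry the floxed allele. Libraries held 612479 to 1070610 counts in KO livers and 445912 to 1170130 counts in controls.

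The region over the miR-122 gene itself held 3 to 52 counts in the KO libraries and 270 to 447 in the controls, with no overlap. The tissue label could be checked on markers. A list of 10 hepatocyte genes such as Alb summed to 12396 to 20064 CPM (counts per library scaled to the same total) in KO livers and 27712 to 35702 CPM in controls. Within that list Ttr went the other way, with 5834 counts over the KO libraries and 2780 over the controls, and Tf had no reads. Neuron markers, in a list that also holds glial genes such as Mbp and Gfap, summed to 2028, 2258, 2627 and 8443 CPM in KO replicates 1 to 4, against 41.6 to 59.0 CPM in the controls. All 14 genes of that list had reads in the KO libraries, while Syn1, Rbfox1, Gria2, Stmn2, Mbp and Gfap had none in any control, and KO replicate 4 stood apart from the other KO livers. Every region-test call given below for a single region was also made without that library, and the counts that it moves are given with and without it. The marker sums are AGO-bound reads over all regions of each gene, those with a miR-122 match included. In whole tissue, fewer cells of a type, less RNA per cell and less AGO bound to that RNA cannot be told apart.

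The mature sequences show what the 3 family members share and where they part. They are printed 5′ to 3′ from RefSeq (GRCm38.p6) with bases 2 to 8, the seed, in capitals.
miR-29a: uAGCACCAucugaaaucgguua
miR-29b: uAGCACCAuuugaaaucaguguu
miR-29c: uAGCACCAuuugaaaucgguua
The first 9 bases were identical in all of them. Counted from the 5′ end, miR-29c differed from miR-29a by C10U alone, and miR-29b from miR-29a by C10U, G18A, U21G and A22U over 22 compared bases. A seed match therefore cannot tell the members apart. miR-29a and 1 copy of miR-29b lie on chromosome 6 and miR-29c and the other copy of miR-29b on chromosome 1. In the target, an 8mer match reads UGGUGCUA, a 7mer-m8 match UGGUGCU, a 7mer-A1 match GGUGCUA and a 6mer match GGUGCU.

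Matches could be read as letters only where a region lay in a RefSeq promoter window, which was so for 45 matches, and all 45 had the expected 6 letters and the deposited class. Shown are 5, 1 or 2 for each class, as 30-base stretches of the transcript strand in GRCm38.p6 with the matched bases in capitals.
Ccdc28b, 8mer, 3′ UTR, chr4:129619307-129619336, minus strand: cggaagcccctTGGTGCTAtggggtcgggg
Cdk5rap3, 8mer, 5′ UTR, chr11:96916422-96916451, minus strand: ccgctcaggatTGGTGCTAggctgggccgg
Cyp2c67, 7mer-m8, 5′ UTR, chr19:39648993-39649022, minus strand: atttgtagtctTGGTGCTttgtctgtcctt
Ndufa9, 7mer-A1, coding, chr6:126822083-126822112, minus strand: caagtccattgaGGTGCTAcggcggcatcg
Rnf26, 6mer, 5′ UTR, chr9:44113196-44113225, minus strand: tcctaacgctgaGGTGCTtcctccggtcca
They were chosen because their letters could be read, not for how they moved. The Ndufa9 region had too few counts to be tested, and of the other 4 only the Cyp2c67 region passed. It averaged 9.16 ± 5.81 CPM in KO livers and 50.9 ± 21.4 CPM in controls (SD, n = 4 and 5; log2 fold −2.35 ± 0.41 SE, adjusted p = 0.000167, edgeR's quasi-likelihood test). Cyp2c67 has near-identical neighbours in the Cyp2c cluster, so its reads are uncertain.

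Among the 5085 regions, 7mer-m8 matches were the most frequent class with 2294 (45.1%), followed by 1590 6mers (31.3%), 731 8mers (14.4%) and 470 7mer-A1 matches (9.24%). By annotation, 1948 regions (38.3%) lay in coding sequence and 1737 (34.2%) in 3′ UTRs, with 408 in introns and 259 in 5′ UTRs. Longer matches sat closer to the middle of the AGO-bound stretch. In regions of the usual width of 70 bases, 92.1% of 684 8mers lay within 20 bases of the centre, against 87.9% of 2146 7mer-m8 matches, 82.8% of 430 7mer-A1 matches and 73.0% of 1437 6mers. The median distance from the centre was 4 bases for 8mers, 6 for 7mer-m8, 8 for 7mer-A1 and 12 for 6mers. These are descriptions of the deposited regions, and how the region centre was set is not stated in the sources used here.

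**Figure D1:**
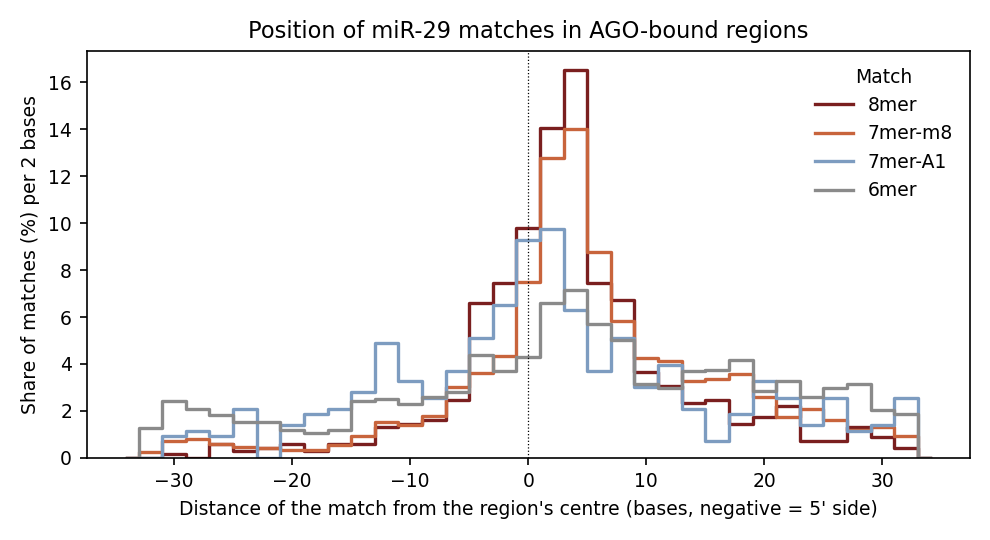
Position of miR-29 matches within 70-base AGO-bound regions. The x axis is the distance of the match from the region's centre in bases (negative on the 5′ side), the y axis the share of matches of each class per 2 bases; the 8mer and 7mer-m8 lines peak just 3′ of the centre (median distance 3 and 4 bases), and the 6mer line is the flattest, with 73.0% within 20 bases.

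In 3′ UTRs, conservation was highest at 8mers and lowest at 6mers. The median phyloP, a score of conservation across species averaged over the 6 matched bases, was 1.86 at 3′ UTR 8mers, 1.64 at 7mer-A1, 1.31 at 7mer-m8 and 0.82 at 6mers. The median total count over all 9 libraries was 62.0 for 3′ UTR 8mers and 32.5 for 3′ UTR 6mers. Coding matches were conserved throughout, with medians between 1.44 at 6mers and 1.88 at 8mers, in sequence that also encodes protein. A match to another of the 31 annotated microRNA families lay in 2710 of the regions. The most frequent partner was miR-103/107 with 812 regions (16.0%), then miR-15/16 with 564 (11.1%), so AGO at those regions cannot be credited to miR-29 alone.

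Counts were spread thinly over most regions and heavily over a few. The median region held 30 counts in all 9 libraries together, while the 10 highest held 14.0% of all counts in miR-29 regions and the 100 highest 36.7%. Regions fell in 3606 named genes, of which 805 had at least 2 and 22 at least 5. The genes with the most were Col3a1 with 12, Col1a1 with 11 and Col1a2 with 11, which encode the chains of type I and type III collagen, then Egfr with 9, and Tet2, Tet3 and Nfia with 7 each. In Col3a1, miR-29 regions held 54.3% of the gene's AGO-bound counts in KO livers and 55.2% in controls, and in Col6a3 73.0% in KO livers and 81.6% in controls. Dnmt3b, a de novo DNA methyltransferase, had 81.0% of its counts in miR-29 regions in KO livers and 81.6% in controls, all in 2 regions of its 3′ UTR.

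The 10 most occupied regions lay largely in transcripts that are abundant in liver. Besides those described below they lay in Fga, Rnase4, Mettl7b, Gm26917 and an unnamed LTR element. The highest was an 8mer in H19, an imprinted long non-coding RNA of fetal liver, described below. The second was a 6mer in the 3′ UTR of Ahsg, which encodes the plasma protein fetuin-A, with 2075, 3101, 2415 and 2593 CPM in KO livers and 2297, 1646, 2013, 1428 and 1886 CPM in controls. The groups overlapped and the difference did not pass (log2 fold 0.41 ± 0.29 SE, adjusted p = 0.265). The 8mer in the 3′ UTR of Slco1b2, a hepatocyte uptake transporter, held 712 ± 177 CPM in KO livers and 858 ± 57.8 CPM in controls and did not pass (adjusted p = 0.174). It lay 223 bases from a region with a miR-122 match. The coding 7mer-m8 of Cyp2c70, an enzyme of murine bile acid synthesis, fell to 272 ± 163 CPM in KO livers, against 672 ± 259 CPM in controls (log2 fold −1.40 ± 0.37 SE, adjusted p = 0.00476). Cyp2c70 belongs to the same gene cluster as Cyp2c67, with the same uncertainty. Its groups overlapped, with 484, 308, 182 and 113 CPM in KO livers and 483, 406, 684, 715 and 1071 CPM in controls.

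An 8mer without a gene name in the deposited file ranked among these 10 and lies inside Eln, the gene of elastin, in the RefSeq table (GRCm38.p6, chr5:134703707-134703776, minus strand). It held 1136, 856, 879 and 438 CPM in KO livers and 304, 238, 358, 286 and 251 CPM in controls. Every KO liver lay above every control, and KO replicate 4 was the lowest of the KO livers. The region rose 2.90-fold (log2 fold 1.54 ± 0.24 SE, adjusted p = 6.38e-05). The match was conserved (phyloP 2.44), and no other annotated family had a match there. The file names 5 further miR-29 regions in Eln, all coding.

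Taken as a whole, miR-29 regions held a slightly larger share of AGO-bound reads in KO livers, within the spread between libraries. The share was 7.25, 7.40, 7.26 and 5.44% in KO livers and 5.73, 5.93, 6.18, 5.57 and 5.44% in controls. The means were 6.84 ± 0.93% in KO livers and 5.77 ± 0.29% in controls (SD, n = 4 and 5), a ratio of 1.19, and the groups overlapped through KO replicate 4, without which the ratio was 1.27. This ratio depends on what the reads are divided by. Regions with a miR-122 match take up a large part of the control libraries, and with them left out of the total the share was 7.15 ± 0.97% in KO livers and 7.69 ± 0.44% in controls, a ratio of 0.930.

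**Figure D2:**
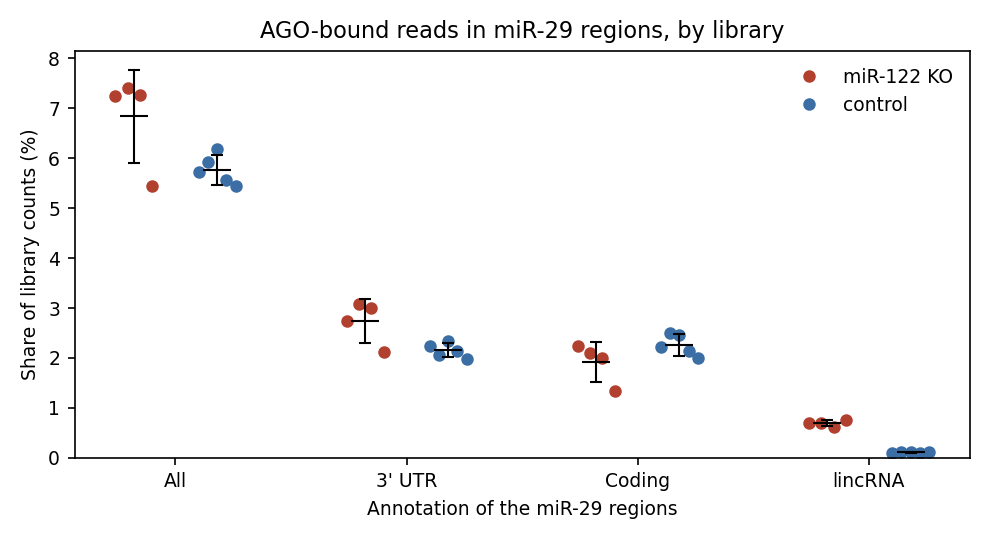
Share of each library's counts in miR-29 regions (y axis, percent), for all of them and by annotation (x axis). Red points are the 4 KO livers and blue points the 5 controls, with black bars for the mean ± SD; KO replicate 4, the right-hand red point, is the lowest KO liver over all regions, in 3′ UTRs and in coding sequence, and the highest in lincRNAs, where every KO liver lies above every control.

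The share moved in different directions by annotation. In 3′ UTRs it was 2.73 ± 0.44% in KO livers and 2.16 ± 0.14% in controls, and in coding sequence 1.92 ± 0.40% in KO livers and 2.26 ± 0.21% in controls, with overlap in both. In introns it was 0.182 ± 0.0235% in KO livers and 0.113 ± 0.00694% in controls, a ratio of 1.61 without overlap. Regions in lincRNAs held 0.702, 0.703, 0.621 and 0.755% in KO livers and 0.101, 0.120, 0.121, 0.101 and 0.123% in controls, a ratio of 6.13 without overlap. H19 was the largest part of that, and without the H19 regions the ratio over all miR-29 regions was 1.14. Rises in lincRNAs and introns were not limited to miR-29 regions. Of all tested lincRNA regions without a miR-122 match, 85 of 149 rose at an adjusted p under 0.05 (edgeR) and 3 fell. Of those with a miR-29 match, 8 of 20 rose and 0 fell. In introns 131 of 382 rose and 28 fell, against 3 of 24 and 3 for miR-29 regions.

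Region by region, 1194 of the 5085 passed the filter on low counts and were tested, and the other 3891, with a median of 23 counts, were not. Of those tested, 177 rose in KO livers (14.8%) and 139 fell (11.6%) at an adjusted p under 0.05, and 878 did not pass. Among all 17182 regions tested, 17.5% rose and 27.6% fell. Among the 13915 regions without a miR-122 match, which is the set that miR-29 regions belong to, 21.3% rose and 13.2% fell. Both shares of miR-29 regions were below these, a difference that was not tested. Their median log2 fold was 0.22, against 0.26 for regions without a miR-122 match and 0.03 for all regions. The balance of calls moved with the scaling: 56.0% of the called miR-29 regions rose in the test as run, 73.1% with upper quartile scaling and 46.2% with TMM factors taken from regions without a miR-122 match. Without control replicate 4 the number that rose was 96, and without KO replicate 4 it was 240 of 1378 tested, with 157 lower. The KO and control libraries did not overlap in 245 of the 1194 regions (20.5%), with KO above in 135 of them. Over all regions tested this share was 38.4%, but that set includes regions with a miR-122 match, which miR-29 regions leave out by rule. The share without them was not computed.

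The balance of rises and falls varied with annotation. In 3′ UTRs 117 of 494 regions tested rose and 29 fell, with a median log2 fold of 0.45, where 31.1% of all 3′ UTR regions without a miR-122 match rose and 7.63% fell, with a median of 0.54. In coding sequence 22 of 438 rose and 85 fell, where 9.68% of all coding regions without a miR-122 match rose and 20.1% fell. The coding median was −0.16 against −0.04 for that set, and it was 0.08 with upper quartile scaling. Among 3′ UTR regions, 37 of 133 with an 8mer rose and 5 fell (median 0.54), and 26 of 113 with a 6mer rose and 14 fell (median 0.30). Of 3′ UTR regions at a phyloP of at least 1, 83 of 325 rose and 9 fell. Below it, 34 of 167 rose and 20 fell. Coding 6mers had the lowest median, −0.63, with 36 of 106 lower. The differences between these classes were not tested. Beside miR-29, regions of miR-26 (213 of 927 rose and 50 fell), miR-30 (292 of 1431 and 82) and let-7 (292 of 1658 and 137), also without a miR-122 match, had medians of 0.46, 0.36 and 0.25.

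Matrix genes had the highest medians of the 6 gene lists examined. Collagen genes, the structural chains of the fibrils and of basement membrane, held 59 miR-29 regions in 16 of 23 genes. Of the 16 regions tested 12 rose and none fell, with a median log2 fold of 1.30. In 3′ UTRs 8 of its 10 tested regions rose, where 31.1% of all 3′ UTR regions without a miR-122 match did. With TMM factors from regions without a miR-122 match 1 fell, the coding 7mer-A1 of Col18a1. Other matrix genes held 29 regions, of which 6 were tested, 4 rose and none fell (median 0.94). In both lists some of the regions that rose passed the filter on low counts through the KO group alone, so they were tested only because they differ. At an unadjusted p under 0.05 in edgeR, 1 collagen region and none of the other matrix regions was lower, and DESeq2 called none lower in either list. Summed over all 59 regions, tested or not, the collagen regions held 1185, 1517, 1586 and 942 CPM in KO livers and 543, 446, 542, 525.6 and 481 CPM in controls, and every KO liver lay above every control. The 23 regions in 3′ UTRs summed to 900.5 ± 219 CPM in KO livers against 309 ± 32.8 CPM in controls. The 32 coding regions, of which 3 were tested, summed to 232 ± 69.4 CPM in KO livers and 127 ± 26.6 CPM in controls, with overlap.

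The 3′ UTR 7mer-m8 of Col4a2, a chain of the basement membrane collagen, was the most occupied. It held 358, 465.8, 471 and 299 CPM in KO livers and 144, 146, 158, 135 and 139.6 CPM in controls, and rose 2.61-fold (log2 fold 1.39 ± 0.23 SE, adjusted p = 9.88e-05). The 8mer of its partner chain Col4a1 held 48.3 ± 5.36 CPM in KO livers and 20 ± 3.37 CPM in controls (log2 fold 1.24 ± 0.30 SE, adjusted p = 0.00244). RefSeq places Gm15418 over the same stretch, so its reads could belong to either. Both type IV chains rose without overlap between the groups.

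The 4 largest folds among the collagen regions lay in Col3a1 and Col1a1, chains of fibrillar collagens. The 3′ UTR 8mer of Col3a1 held 41.7, 117, 177 and 99.6 CPM in KO livers and 19.7, 20.2, 14.1, 20.5 and 16.1 CPM in controls (log2 fold 2.18 ± 0.36 SE, adjusted p = 8.89e-05). A conserved 6mer downstream of it rose by a log2 fold of 2.42 ± 0.37 SE, with 30.7 ± 7.93 CPM in KO livers and 5.33 ± 2.25 CPM in controls (adjusted p = 5.18e-05). Col1a1 had a 3′ UTR 8mer at 25.4 ± 10.2 CPM in KO livers and 5.29 ± 2.33 CPM in controls (log2 fold 2.10 ± 0.43 SE, adjusted p = 0.000595) and a coding 7mer-m8 that also rose (log2 fold 2.22 ± 0.43 SE, adjusted p = 0.000371). Its partner chain Col1a2 had a 7mer-A1 at 21.5 ± 2.37 CPM in KO livers and 7.60 ± 1.17 CPM in controls (log2 fold 1.46 ± 0.37 SE, adjusted p = 0.0034). In each of these regions every KO liver lay above every control. The Col3a1 6mer, both Col1a1 regions and the Col1a2 region passed the filter on low counts through the KO group alone. They were tested only because they differ.

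Col6a3 and Col5a2 rose as well. The Col6a3 3′ UTR 8mer, in a gene of the microfibrillar collagen, held 112, 172, 161 and 78.4 CPM in KO livers and 56.4, 31.4, 43.1, 38.5 and 37.6 CPM in controls (log2 fold 1.57 ± 0.28 SE, adjusted p = 0.000198). The Col5a2 8mer, annotated as 5′ UTR, held 59.6 ± 11 CPM in KO livers and 27.5 ± 4.45 CPM in controls (log2 fold 1.09 ± 0.26 SE, adjusted p = 0.00217). The 8mer of its partner chain Col5a1 did not pass (log2 fold 0.28, adjusted p = 0.736). Sparc, a collagen-binding matrix protein, had a conserved 7mer-A1 with 192, 247, 311 and 136 CPM in KO livers and 123, 105, 120.5, 115 and 101 CPM in controls. Its groups did not overlap and it rose 1.83-fold (adjusted p = 0.00824), a call that was lost without control replicate 4 (adjusted p = 0.0545). Among the 4 collagen regions that did not pass was the coding 6mer of Col14a1, with 8.54 ± 4.98 CPM in KO livers and 14.1 ± 6.83 CPM in controls (adjusted p = 0.162).

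**Figure D3:**
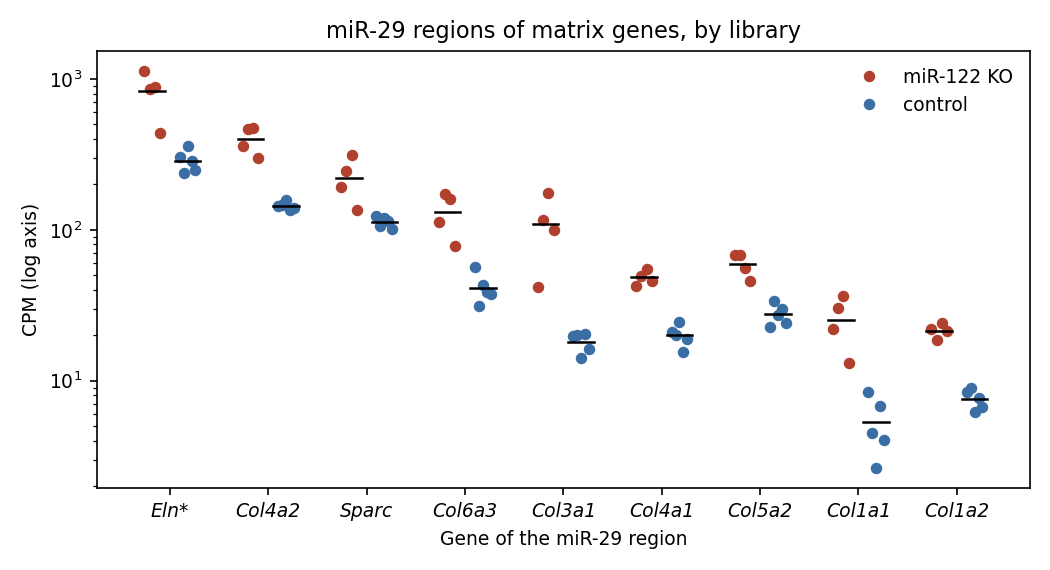
CPM (log axis) of the miR-29 region of 9 matrix genes in each library, with red points for the 4 KO livers, blue points for the 5 controls and black lines for the means. Every KO liver lies above every control in all 9; Eln* is the region that the deposited file leaves unnamed and that lies inside Eln in the RefSeq table.

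Stellate cell markers moved with the matrix regions. A list of 10, of which Col1a1, Col1a2 and Col3a1 also belong to the collagen list, summed over all regions of the genes to 1841, 1866, 2119 and 1174 CPM in KO livers and 704 to 852 CPM in controls. Without those 3 collagens the other 7, among them Lrat, Des and Reln, summed to 415 to 842 CPM in KO livers and 384 to 569 CPM in controls, with overlap. Kupffer cell markers summed to 341 to 654 CPM in KO livers and 318 to 386 CPM in controls, and endothelial markers to 976 to 1266 CPM in KO livers and 975 to 1267 CPM in controls. The part of cell composition in the rise of matrix regions was not tested. Without KO replicate 4, 15 of 18 collagen regions tested rose and none fell.

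Other regions of the same genes could be set beside the miR-29 regions. Over the 16 collagen genes with a miR-29 region, the 152 regions with neither a miR-29 nor a miR-122 match summed to 1619.9 ± 372 CPM in KO livers and 945 ± 115 CPM in controls, without overlap. The ratio was 1.71, where the 59 miR-29 regions had 2.58. Col18a1 held 529.6 of those 945 CPM and was lower in KO livers, with a ratio of 0.625 for its miR-29 regions and 0.624 for its other regions. In the miR-29 regions it held 42.8 of 507 CPM in controls, so it lowers the summed ratio of the other regions far more. Gene by gene the order of the ratios varied, and in most of the 11 genes with a tested region the other regions had the higher ratio. In Col1a1 the ratio was 4.12 for miR-29 regions and 4.07 for the others, in Col3a1 3.64 and 3.78, and in Col4a2 2.76 and 2.28. In Col1a2 it was 2.21 for miR-29 regions and 3.35 for the others, and in Col6a3 3.08 and 6.05, where the other regions held only 0 to 22.2 CPM in controls. The ratio was also lower for the miR-29 regions in Col5a1 (1.51 and 3.53), Col15a1 (1.98 and 4.60) and Col5a2 (2.09 and 3.10). The same order held in Col4a1 (2.15 and 2.48) and Col14a1 (0.605 and 1.80). The differences between these ratios were not tested.

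A within-gene test asked whether a region moved differently from its gene as a whole, and it covered 15 collagen regions and 6 of other matrix genes. By edgeR none was higher than its gene, also at an unadjusted p under 0.05, and 1 was lower, the coding 6mer of Col14a1 (relative log2 fold −1.23, adjusted p = 0.021). The gene's total includes the region itself, so the relative fold lies near 0 wherever 1 region holds most of the counts, as in Col4a2 with 87.3% in KO livers and 85.7% in controls. For the Col3a1 8mer the relative log2 fold was 0.36 (adjusted p = 0.526) and for the Col1a2 7mer-A1 −0.17 (adjusted p = 0.872). These values do not show equal change. The Eln region, without a gene name in the file, and the Col15a1 region were not in this test.

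Over all miR-29 regions, this test called 149 of 901 higher than their genes and 30 lower, where 15.9% of all 12856 regions were higher and 15.9% lower. Regions of the same gene with a miR-122 match enter that comparison. Among regions without a miR-122 match alone (a fit chosen once the data had been seen), 21 of 880 miR-29 regions were higher than their genes and 34 lower, where 4.79% of 10336 regions were higher and 6.19% lower. The median relative log2 fold was −0.03, against 0.02 for all regions in that fit.

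Genes of DNA methylation and chromatin held 42 miR-29 regions, of which 18 in 7 genes were tested, 6 rose and none fell (median log2 fold 0.59). All 6 lay in 3′ UTRs, where 14 of the list's regions were tested, and 31.1% of all 3′ UTR regions without a miR-122 match rose. In this list and the next 2, neither DESeq2 nor edgeR at an unadjusted p under 0.05 gave a region that was lower. All 42 summed to 787 ± 134 CPM in KO livers and 491 ± 66.7 CPM in controls, without overlap. The rise was not limited to them: all regions of the listed genes summed to 2070 to 3039 CPM in KO livers and 1546 to 1907 CPM in controls. The 3′ UTR 8mer of Tet3, which oxidises methylated cytosine, held 145, 141, 177 and 71.8 CPM in KO livers and 83.2, 94.2, 99.4, 85.5 and 52.4 CPM in controls. It rose by a log2 fold of 0.73 ± 0.26 SE (adjusted p = 0.0312), with overlap through KO replicate 4. The call was lost without KO replicate 3 or any of control replicates 1, 3, 4 and 5 (adjusted p 0.0586 to 0.127). Zfp36l1, which encodes an mRNA decay factor and stood in this list as a known family target, had an 8mer at 149.8 ± 28.5 CPM in KO livers and 77.3 ± 29.6 CPM in controls (log2 fold 0.98 ± 0.30 SE, adjusted p = 0.0119, and 0.0644 without control replicate 5).

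Signalling genes of the insulin, growth factor and PI3K pathways held 24 regions, of which 14 were tested, 5 rose and none fell (median 0.66). All 5 were among its 13 tested 3′ UTR regions (31.1% over all 3′ UTR regions without a miR-122 match). Pdgfa, a growth factor ligand, had a 7mer-m8 at 18.7 ± 7.90 CPM in KO livers and 4.96 ± 3.32 CPM in controls (log2 fold 1.58 ± 0.46 SE, adjusted p = 0.00971). On its control counts alone the Pdgfa region would not have passed the filter on low counts. Among the 5, the Sgk1 region passed that filter through the KO group alone. The most occupied signalling region did not pass. The 3′ UTR 8mer of Igf1, the liver's growth hormone-dependent growth factor, held 260.3, 503, 459.6 and 232 CPM in KO livers and 379, 294, 368, 325 and 234 CPM in controls (log2 fold 0.09 ± 0.29 SE, adjusted p = 0.821).

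Genes of the cell cycle, survival and transcription held 24 regions, of which 13 were tested, 6 rose and none fell (median 0.62). All 6 were among its 12 tested 3′ UTR regions, against the same 31.1%, and the median of that background was 0.54. Bmf, a pro-apoptotic BH3-only protein, had an 8mer at 16.9, 26.3, 37.4 and 14.7 CPM in KO livers and 5.64, 8.97, 9.67, 5.98 and 1.34 CPM in controls (log2 fold 1.87 ± 0.48 SE, adjusted p = 0.00412). Ahr, the aryl hydrocarbon receptor, had a 7mer-m8 at 23.9 ± 13.2 CPM in KO livers and 6.03 ± 1.57 CPM in controls (log2 fold 1.56 ± 0.42 SE, adjusted p = 0.00529). Neither overlapped between groups. The Bmf and Ahr regions passed the filter on low counts through the KO group alone, so they were tested only because they differ. Dicer1, which cuts microRNA precursors, had a 3′ UTR 8mer that rose to 80.2 ± 40.2 CPM in KO livers, against 41.0 ± 17.9 CPM in controls (log2 fold 1.15 ± 0.31 SE, adjusted p = 0.00622). That region was also higher than its gene as a whole (relative log2 fold 0.89, adjusted p = 0.0212), and not in the fit without miR-122 regions (adjusted p = 0.077). The transcription factor Yy1 had a conserved 7mer-m8 that did not pass on its own (8.12 ± 4.53 CPM in KO livers and 10.8 ± 4.25 CPM in controls, adjusted p = 0.56) and was lower than its gene in both fits (relative log2 fold −2.33 in each, adjusted p 0.000282 and 0.000813).

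Metabolic genes ran the other way. Genes of lipid and glucose metabolism held 22 regions, of which 15 were tested, 7 fell and 1 rose (median log2 fold −1.0), where 13.2% of all regions without a miR-122 match fell. Of the regions tested 6 were coding and 9 lay in 3′ UTRs. In these classes 20.1% and 7.63% of all regions without a miR-122 match fell. All 22 summed to 554, 619.8, 529 and 397 CPM in KO livers and 1395, 1314, 1256, 1120 and 738 CPM in controls, and every KO liver lay below every control. The fall was not limited to them: all regions of the listed genes summed to 6417 to 10680 CPM in KO livers and 11314 to 16932 CPM in controls. The coding 7mer-m8 of Scd1, the stearoyl-CoA desaturase, held 47.7, 31.2, 21.5 and 32.7 CPM in KO livers and 286, 442, 272, 414 and 200.0 CPM in controls (log2 fold −3.23 ± 0.32 SE, adjusted p = 5.45e-07). A pair of coding regions of Fasn, the fatty acid synthase, fell by log2 folds of −2.83 ± 0.60 and −1.57 ± 0.38 SE (adjusted p 0.000933 and 0.00245). The first of the pair passed the filter on low counts through the control group alone, so it was tested only because it differs. A coding region of Insig1, which restrains sterol synthesis, fell to 9.69 ± 8.07 CPM in KO livers, against 33.8 ± 15.4 CPM in controls (adjusted p = 0.00476). None of these 4 regions passed in the within-gene test (adjusted p 0.134 to 0.88). Of the 15 regions of the list in that test, 4 were higher than their gene and none lower, in Fasn (another coding region), Insig1 (3′ UTR), Sqle and Dbt, a subunit of branched-chain keto acid dehydrogenase. Their relative log2 folds were 1.48, 1.29, 1.44 and 1.52 (adjusted p 0.0139, 0.0125, 0.00868 and 0.000145), and only Sqle passed in the fit without miR-122 regions.

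The 3′ UTR region of G6pc, which releases glucose from its phosphate, fell to 143 ± 58.6 CPM in KO livers, against 409 ± 209 CPM in controls (adjusted p = 0.029). It lay 12 bases from a region with a miR-122 match, and the call was lost without KO replicate 1, KO replicate 3 or control replicate 4 (adjusted p 0.0626 to 0.327). The exception in the list was Lpl, the lipoprotein lipase, mostly a product of non-hepatocyte cells in adult liver. Its conserved 3′ UTR 8mer held 58.6, 57.5, 81.3 and 55.5 CPM in KO livers and 15.5, 20.2, 13.2, 41.9 and 47.0 CPM in controls. It rose by a log2 fold of 0.98 ± 0.29 SE (adjusted p = 0.0117, and 0.201 without KO replicate 1), without overlap. The 6mer of Sqle, the squalene epoxidase, did not pass on its own (19.4 ± 9.63 CPM in KO livers and 7.95 ± 2.84 CPM in controls, adjusted p = 0.0945) and was higher than its gene in both fits (adjusted p 0.00868 and 0.00613).

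**Figure D4:**
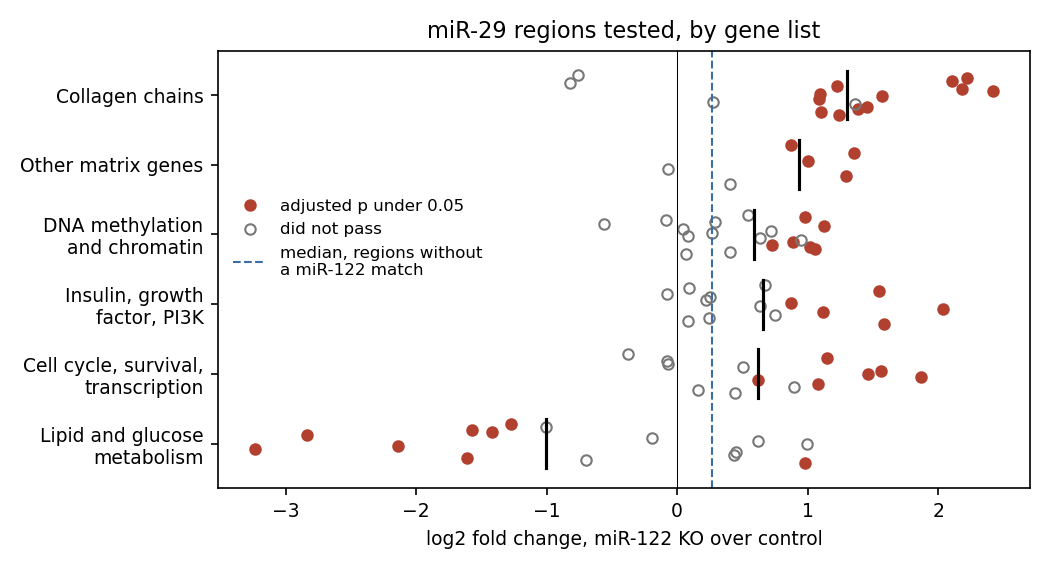
Log2 fold change, KO over control (x axis), of each miR-29 region tested in 6 gene lists (y axis). Filled red points passed at an adjusted p under 0.05, open points did not, black bars are list medians (1.30 for collagen chains, −1.0 for lipid and glucose metabolism) and the dashed line is the median of regions without a miR-122 match, 0.26.

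The largest rises among miR-29 regions included imprinted and neuronal transcripts. The H19 8mer held 5305, 5420, 4421 and 4818 CPM in KO livers and 39.5, 109.9, 35.2, 72.6 and 294 CPM in controls, a 41.5-fold rise (log2 fold 5.37 ± 0.49 SE, adjusted p = 2.28e-07). KO replicate 4 lay within the range of the other KO livers. A coding 7mer-m8 of the neighbouring imprinted gene Igf2, a fetal growth factor, held 499.8, 283, 156 and 144 CPM in KO livers and 4.23, 4.49, 3.52, 0.855 and 9.40 CPM in controls (log2 fold 6.11 ± 0.44 SE, adjusted p = 2.52e-08). Neither region passed against its gene as a whole (adjusted p 0.405 and 0.25). The filter on low counts was passed by the Igf2 region through the KO group alone, so it was tested only because it differs. The Igf2 region also carries matches to miR-103/107, miR-15/16 and miR-143 and lay 756 bases from a region with a miR-122 match.

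Meg3, a maternally expressed non-coding RNA that is abundant in brain, had 5 miR-29 regions, and 2 of them overlap Rtl1. The most occupied held 232, 249, 279 and 962 CPM in KO livers and 0, 4.49, 0, 0 and 2.68 CPM in controls (log2 fold 8.34 ± 0.79 SE, adjusted p = 3.19e-07). KO replicate 4 was 3.79 times the mean of the other KO livers there. The other 4 Meg3 regions and the 3′ UTR 6mer of Scn2a1, a neuronal sodium channel that RefSeq calls Scn2a, showed the same library on top. Scn2a1 held 13.9, 13.6, 18.7 and 62.0 CPM in KO livers and no count in any control, at least 38.0-fold higher against a floor of 3 counts over the control group. The Meg3 and Scn2a1 regions had at most 4 counts over all controls together. They passed the filter on low counts through the KO group alone, so they were tested only because they differ. Neuron markers moved with these regions in the same libraries, and their part in the result was not tested.

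The other 3 regions of this size lay outside named genes. One, annotated downstream of a gene and inside Shank1 in the RefSeq table, held 12.9, 19.5, 17.7 and 55.5 CPM in KO livers and none in controls, at least 37.0-fold higher. An intergenic 8mer (chr3:98997423-98997492, plus strand) held 10.9, 28.3, 42.0 and 53.9 CPM in KO livers and none in controls, at least 47.4-fold higher. Another (chr7:58086279-58086348, minus strand) held 40.1 ± 20 CPM in KO livers and 0.449 ± 1 CPM in controls, where a single library had reads. These 3 regions also passed the filter through the KO group alone.

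The largest falls included genes of hepatocyte function. The coding 6mer of Asgr1, a subunit of the asialoglycoprotein receptor, held 0.994, 0, 1.87 and 4.90 CPM in KO livers and 73.3, 62.8, 60.7, 73.5 and 41.6 CPM in controls (log2 fold −5.16 ± 0.53 SE, adjusted p = 7.18e-07). A 5′ UTR 7mer-m8 of Slc23a2, a vitamin C transporter, held 2.98, 2.92, 1.87 and 0 CPM in KO livers and 73.3, 85.2, 54.5, 58.1 and 48.3 CPM in controls (log2 fold −4.76 ± 0.42 SE, adjusted p = 1.52e-07). In both, all KO livers lay far below all controls. Abat, the GABA transaminase, had a coding 6mer at 2.22 ± 3.84 CPM in KO livers and 35.4 ± 6.80 CPM in controls (log2 fold −3.76 ± 0.56 SE, adjusted p = 3.5e-05). Trp53inp2, a nuclear protein that takes part in autophagy, had a 3′ UTR 7mer-A1 at 8.24 ± 4.61 CPM in KO livers and 97.9 ± 29.8 CPM in controls (log2 fold −3.69 ± 0.42 SE, adjusted p = 2.25e-06). The Asgr1, Slc23a2 and Abat regions passed the filter on low counts through the control group alone, so they were tested only because they differ. On its KO counts alone the Trp53inp2 region would not have passed it.

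These 4 regions also fell against their genes as a whole. The relative log2 fold was −2.68 for Asgr1, −3.70 for Slc23a2, −3.60 for Abat and −2.52 for Trp53inp2 (adjusted p at most 8.04e-05), and it passed as well in the fit without miR-122 regions (adjusted p at most 4.44e-05). The nearest region with a miR-122 match on the same strand lay 68 bases from the Trp53inp2 region, 993 from Asgr1, 12157 from Abat and 45807 from Slc23a2. The Ces1d region, in a carboxylesterase with near-identical neighbours, lay 22 bases from one. It held 1.22 ± 2.44 CPM in KO livers and 15.0 ± 6.5 CPM in controls (adjusted p = 0.00123), and it also passed the filter through the control group alone. Whether the deposited miR-122 annotation misses a match in the other regions was not tested.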

How the data were processed

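Liver AGO CLIP-seq libraries from 4 miR-122 KO mice and 5 floxed littermate controls were compared; groups, replicate numbers and sex come from the labels. The labels' protocols describe powdered frozen liver, crosslinking with ultraviolet light, partial RNase digestion and immunoprecipitation with an antibody to all AGO proteins. Reads were aligned to mm10, with Bowtie2 among the tools, per the submitters' processing notes; neither versions nor peak calling, duplicate handling, strand or counting are described there or in the labels. The deposited matrix (143524 rows, 1 per region and seed match) holds raw read counts per region and library, per the file headers, and mean phyloP as a score by the authors. The authors' deposited log2 fold (control over KO) was used only as a check of direction: it had the matching direction for 878 of the 1194 miR-29 regions tested (73.5%). Libraries were amplified, so floors and errors cover no duplication.

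From these counts, the fit used edgeR 4.0.16 under R 4.3.3, with filterByExpr, TMM factors on the filtered table, and glmQLFit and glmQLFTest with genotype and sex, with Benjamini-Hochberg adjustment over all 17182 regions tested at 0.05. All adjusted p-values are from this fit or, for the within-gene test, from edgeR's diffSpliceDGE on the same fit (12856 regions of genes with several). A filter passed through 1 group alone tests some regions only because they differ. An SE is the log2 fold over the root of the test's F. Folds against a group with no count are bounds against 3 counts over that group (0.713 CPM over controls). Both tests were checked on simulated counts with known changes before use. The region test recovered 62.0% of changes at a log2 fold of −2 and 96.0% at 2, but 6.0% at −1 and 18.0% at 1. There 50 regions were changed for each log2 fold, as many up as down. In both tests only regions with more counts were changed. Recovery in sparser regions, or with as many and as unbalanced changes as called here, was not measured. The within-gene test recovered 51.5% at a log2 fold of 2, with a median fitted value of 1.23. A region that did not pass may therefore still have changed. RefSeq tables on GRCm38.p6, the build mm10 denotes, gave gene overlaps and sequences; no genome was given, so most regions are shown without letters.

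The miR-29 regions, the gene lists and the alternatives were chosen with earlier results of these data known. Values are given for regions among the 10 with the highest mean CPM, the 10 largest called rises and falls without overlap between groups, and the most occupied region per listed gene and match class. DESeq2 1.42.0, other scalings and filters, no sex term, a replicate block and each library left out were alternatives. Figures used matplotlib 3.10.9. Values of a few listed genes are not reported here.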

Additional observations from a re-analysis of the deposited data

Results flagged for a closer look

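A library far from the others of its group, by Dixon's ratio, was found in 11 of 93 groups of values examined, where chance gives about 1 in 20. Among the KO livers, replicate 4 had the lowest share of counts in miR-29 regions (5.445%) and the highest CPM of its group at 2 Meg3 regions (961.7 and 285.7), at Scn2a1 (62.04) and at the region inside Shank1 (55.51). Neuron markers were highest in the same library, at 8443 CPM against 2028 to 2627 CPM in the other KO livers; their part in these values was not tested.

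Among KO livers, replicate 1 was the highest at Abat (7.949 CPM), replicate 2 the only one with reads at Ces1d (4.873 CPM) and replicate 3 the highest at Lpl (81.26 CPM). Among controls, replicate 5 was the highest at H19 (294.0 CPM) and the only one with reads at 1 Meg3 region (1.342 CPM). Control replicate 2 was the only control with reads at the intergenic region on chromosome 7 (2.243 CPM).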

How the results depend on the processing

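The numbers of miR-29 regions that rose and fell depended on the settings: 177 and 139 became 285 and 105 with upper quartile scaling, 300 and 215 without a filter, 147 and 66 with a stricter filter, 68 and 83 with the replicate block, 134 and 82 with 6mers left out, and 76 and 64 without regions that match another family. Upper quartile scaling moved the median of all regions to 0.26, and TMM factors from regions without a miR-122 match to −0.09, against 0.03. Leaving out 1 library gave 96 to 240 that rose and 97 to 157 that fell. Matrix and collagen regions that rose numbered 16, and 9 with the stricter filter, 6 with the replicate block and 13 to 20 with 1 library left out. Regions higher and lower than their genes numbered 149 and 30, and 82 and 13 with the stricter filter, 21 and 34 without miR-122 regions, and 91 to 186 and 14 to 38 with 1 library left out. The cause of these shifts was not tested, except that a filter and a removal of samples or regions change what is tested. The share ratio was 1.19, 1.15 to 1.27 with 1 library left out, and 0.930 with miR-122 regions out of the total. Igf1, near no change, had log2 folds of −0.035 with TMM factors from regions without a miR-122 match, −0.020 without a filter and with TMM over all regions, −0.42 with the replicate block and −0.11 to 0.49 with 1 library left out. Of 793 values for single regions, 755 kept direction and side of the threshold, 28 lost and 4 gained a call, and the 6 of Igf1 turned sign.

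Replicate numbers are shared between groups but name separate mice. Deviations of same-numbered libraries correlated at −0.04, −0.01, −0.09 and 0.00 and gave no sign of pairing. The controls are littermates, and whether same-numbered mice share a litter cannot be read from these values. The block took calls over all regions to 1622 higher and 3652 lower, against 3007 and 4745. With the block, 13 of the single regions followed lost their call. Among them were Col1a1 outside coding sequence, Sparc, Dicer1 and Ahr (adjusted p 0.19, 0.404, 0.159 and 0.252 in edgeR). Depth limits the rest: 3891 of 5085 regions had too few counts to be tested.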

Other observations

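Regions with 2 or more miR-29 matches numbered 133, with up to 6 matches in 1 region. Of these 41 were tested, 11 rose in KO livers and 4 fell, with a median log2 fold of 0.40, against 0.21 for the 1153 tested regions with a single match; the difference was not tested. Of the miR-29 regions, 16 had no count in any KO library and 98 had none in any control. Red cell genes, of which 3 regions carry a miR-29 match, summed to 11819 to 18982 CPM in KO livers and 8482 to 12291 CPM in controls. Cholangiocyte markers summed to 127 to 159 CPM in KO livers and 52.1 to 78.5 CPM in controls, and muscle markers to 10.7 to 195 CPM in KO livers and 3.52 to 544 CPM in controls.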
